A study of Homo sapiens with 6 samples.

Results

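The genes described here are 10 isotypes of alpha and beta tubulin, the paired proteins from which microtubules are built: the alpha genes TUBA1A, TUBA1B, TUBA1C, TUBA3C and TUBA4A and the beta genes TUBB, TUBB2A, TUBB3, TUBB4B and TUBB6. They were chosen by symbol with their levels, their shares of all tubulin and their difference between treatment and solvent already known, so these 3 measures are given as a description, without a test. They are 10 of the 19 alpha and beta tubulin genes in the tables, and 10 of 16574 genes in all. RNA was sequenced from Nthy-ori 3-1, a line of thyroid follicular epithelium made immortal with a viral antigen and labelled wild type, in 6 libraries. In 3 the cells had been kept for 27 days in 2.5 µM BDE209, decabromodiphenyl ether, a brominated flame retardant; in the other 3 they had been kept as long in the solvent DMSO alone. The series asks how long exposure to this compound acts on thyroid cell growth. Nothing in the labels says that the 3 libraries of a group came from separate cultures, so any p-value measures the spread between these libraries, which may be technical.

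A microtubule is a hollow tube of tubulin dimers, each of 1 alpha and 1 beta chain, and it serves as the track for transport inside the cell and as the spindle in division. Human cells make several isotypes of either chain from separate genes, which are nearly alike over most of their length and part ways mainly in a short acidic tail at the end, where enzymes add or remove glutamate and tyrosine. TUBA1A, TUBA1B, TUBA1C, TUBB, TUBB4B and TUBB6 are made in many tissues, while TUBB3 is used as a marker of neurons and is also made by many cultured and tumour cells. Cells also sense free tubulin: when it is in excess, the factor TTC5 recognises the first residues of a new tubulin chain at the ribosome and the mRNA is degraded.

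The tails of the beta isotypes are shown because they tell them apart and carry the glutamates that the modifying enzymes act on. The lines below give the last 60 coding bases before the stop codon, from the GENCODE v29 principal transcript, with the codons for glutamate (GAA and GAG) in capitals.
TUBB: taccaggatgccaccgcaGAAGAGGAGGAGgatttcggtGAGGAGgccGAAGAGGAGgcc
TUBB2A: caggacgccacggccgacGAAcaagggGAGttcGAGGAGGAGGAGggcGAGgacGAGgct
TUBB3: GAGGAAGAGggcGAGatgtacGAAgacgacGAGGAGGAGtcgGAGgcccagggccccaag
TUBB4B: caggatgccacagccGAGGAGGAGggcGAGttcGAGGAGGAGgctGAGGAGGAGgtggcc
TUBB6: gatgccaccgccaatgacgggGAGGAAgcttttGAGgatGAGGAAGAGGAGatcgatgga
Between 7 (TUBB6) and 10 (TUBB4B) of these 20 codons encode glutamate, with 9 in TUBB, 9 in TUBB3 and 8 in TUBB2A.

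The first bases of the coding sequence are shown because they encode the residues that TTC5 reads. In the lines below codons 2 to 4 are in capitals.
TUBA1A, TUBA1B and TUBA1C: atgCGTGAGTGC
TUBA3C: atgCGTGAGTGT
TUBA4A: atgCGTGAATGC
TUBB and TUBB4B: atgAGGGAAATC
TUBB2A: atgCGCGAGATC
TUBB3 and TUBB6: atgAGGGAGATC
By the genetic code these triplets spell the same residues in all 5 alpha genes and the same in all 5 beta genes, alpha and beta differing at the fourth codon. Over the whole coding sequence, alpha members were 83.8% to 97.2% identical to each other, beta members 80.9% to 87.8%, and an alpha to a beta 54.8% to 58.0%. The closest members were TUBA1A and TUBA1B (97.2%), TUBA1B and TUBA1C (96.8%) and TUBA1A and TUBA1C (95.9%), 3 genes that lie on chromosome 12. TUBB2A was 98.2% identical to TUBB2B, on chromosome 6 with it, and TUBA3C 96.6% to TUBA3D. How reads that match several of these genes were shared out is not given in the sources used here. The split within TUBA1A, TUBA1B and TUBA1C, within TUBB2A and TUBB2B, and within TUBA3C and TUBA3D is therefore uncertain. Sums are given beside it for the TUBA1 and the TUBB2 genes, though they too depend in part on the split. TUBA3C and TUBA3D are given each by itself.

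Both replicate 2 libraries stood apart from the rest. Their FPKM, fragments scaled to transcript length and library total, summed to 829739 in BDE209 and 819086 in DMSO, against 567810 to 596725 in the other 4 libraries, and libraries with the same replicate number deviated together from their group means. Values are therefore given for every library and difference by replicate number. The line expressed few follicular markers: TG, TSHR, NKX2-1 and SLC5A5 each read 0.12 FPKM or less, and HHEX, the highest of 9 such markers, read 5.92 to 7.62 in BDE209 and 4.83 to 6.72 in DMSO. Of the epithelial markers, KRT7 read 75.77 to 97.12 in BDE209 and 97.24 to 113.06 in DMSO, whereas CDH1 was listed at 0 in 5 of 6 libraries. The mesenchymal filament gene VIM read 6816.94 to 7520.28 in BDE209 and 7736.86 to 9206.88 in DMSO. Neither KRT7 nor VIM overlapped between the groups, both being lower in BDE209, which held for 2% of all tested genes. The KRT7 ranges all but met, at 97.12 in BDE209 and 97.24 in DMSO. Limma, fitted to all tested genes with the replicate number as a block, gave adjusted p = 0.204 for KRT7 and 0.223 for VIM. The other markers were mixed: of 4 tested epithelial genes 3 were lower in BDE209 in all 3 replicate numbers and KRT8 differed by 0.07. Of 5 mesenchymal genes VIM and FN1 were lower in all 3, COL1A1 and COL1A2 differed by -0.08 and -0.07, and CDH2 differed by 0.40, -0.14 and 0.43 in replicates 1, 2 and 3. The 4 epithelial and 5 mesenchymal genes had median log2 differences of -0.10 and -0.08, and their part in the tubulin values was not tested.

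Tubulin transcripts made up about 1 part in 100 of all transcript signal. The 19 alpha and beta genes summed to 5888.37, 7065.26 and 6370.03 FPKM in BDE209 replicates 1, 2 and 3, and to 6647.82, 7369.27 and 6978.76 in DMSO replicates 1, 2 and 3. BDE209 was lower in each replicate number, by folds of 0.886, 0.959 and 0.913, and the ranges of the groups overlapped. The group means were 6441.2 ± 591.7 and 6998.6 ± 361.1 FPKM (SD, n = 3 each), a log2 ratio of -0.12. That ratio was -0.06 without BDE209 replicate 1 and -0.19 without BDE209 replicate 2. As a share of all FPKM in the library, the sum was 1.00%, 0.852% and 1.12% in BDE209 and 1.11%, 0.900% and 1.20% in DMSO. The 10 listed genes held 99.68% to 99.79% of the sum in BDE209 and 99.74% to 99.83% in DMSO. In bulk RNA, fewer cells of a kind and less RNA per cell cannot be told apart.

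Alpha transcripts outweighed beta transcripts in every library. The alpha genes summed to 3926.6 ± 411.7 FPKM in BDE209 and 4302.8 ± 237.8 in DMSO, and the beta genes to 2514.6 ± 190.8 in BDE209 and 2695.8 ± 144.6 in DMSO (SD, n = 3 each). The alpha to beta ratio was 1.47, 1.59 and 1.62 in BDE209 replicates 1, 2 and 3 and 1.55, 1.57 and 1.67 in DMSO. It was lower in BDE209 in replicates 1 and 3 and higher in replicate 2, and the groups overlapped.

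The levels spanned more than 3 orders of magnitude, as the plot of levels by library shows. In both groups the order of mean FPKM was TUBA1B, TUBB, TUBA1C, TUBB4B, TUBA1A, TUBB6, TUBB3, TUBB2A, TUBA4A and TUBA3C. In BDE209, neighbours in that order whose ranges overlapped were TUBA1C with TUBB4B and TUBB4B with TUBA1A. In DMSO the one such pair was TUBA4A with TUBA3C, and all other neighbours kept apart. TUBB2A stood 19.7 times above TUBA4A in BDE209 and 34.4 times in DMSO, the widest step in the series of 10.

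**Figure D1:**
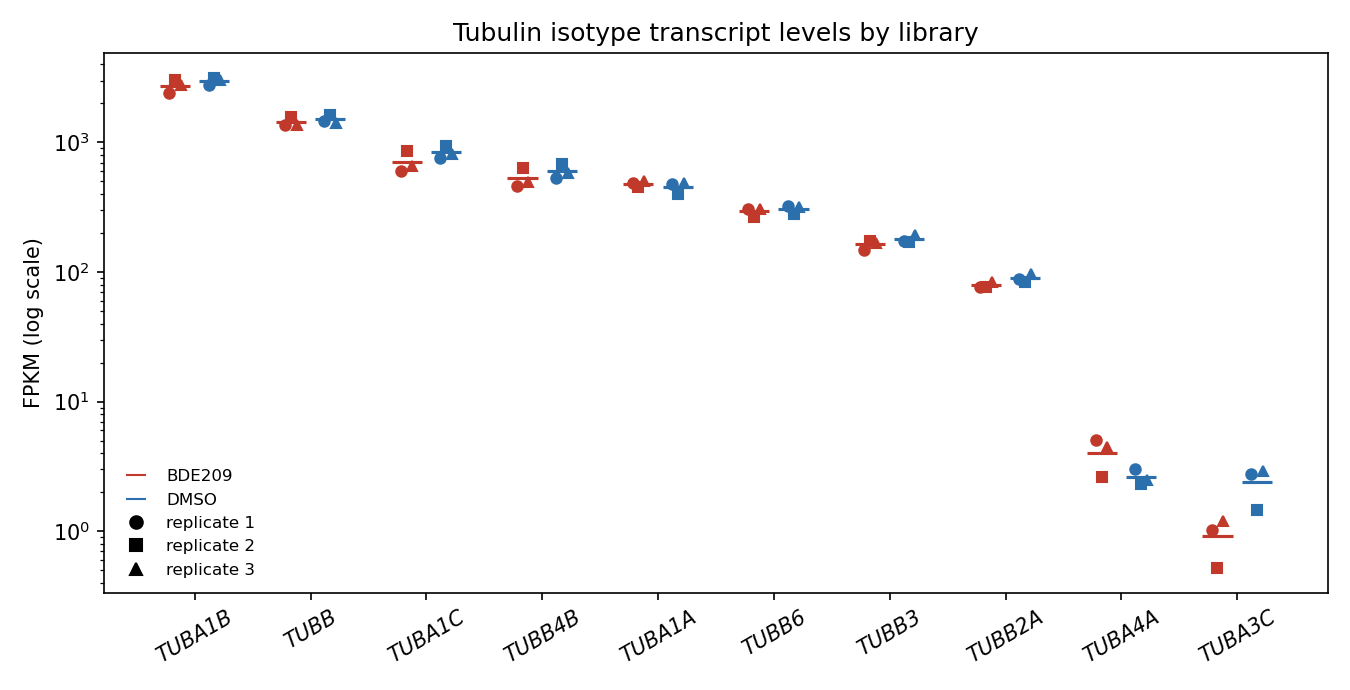
FPKM on a log axis of the 10 isotypes in each of 6 libraries, BDE209 in red left of DMSO in blue, with group means as bars and replicate numbers as symbols. TUBA1B lies highest and TUBA3C lowest; the groups separate in TUBA3C alone, at 0.52 to 1.2 in BDE209 and 1.46 to 2.92 in DMSO.

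Across all genes, limma on log2(FPKM + 1) called 0 of 11223 tested genes at an adjusted p under 0.05 (0%), and so 0 of the 10 isotypes, all of which passed the filter. With the replicate number as a block it also called 0 (0%). Unadjusted p was under 0.05 for 176 genes without the block and 1847 with it. On replicates 1 and 3 alone it called 764 genes (6.81%), with 4.47% of all tested genes higher in BDE209 and 2.33% lower; among the isotypes those were TUBA4A and TUBA3C, 1 each way, from which nothing is read since the list was made with this contrast in view. The isotypes were lower in BDE209 in all 3 replicate numbers in 7 of 10 cases and higher in 2, where over all tested genes 17.3% were lower and 21.9% higher. Their median log2 difference was -0.19, -0.07 and -0.17 in replicates 1, 2 and 3, against medians over all tested genes of 0.013, 0.017 and -0.001. The plot of differences by replicate number shows the widest differences in TUBA3C and, in replicates 1 and 3, in TUBA4A, whose replicate 2 value of 0.12 is smaller in size than those of TUBA1C in replicates 1 and 3.

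**Figure D2:**
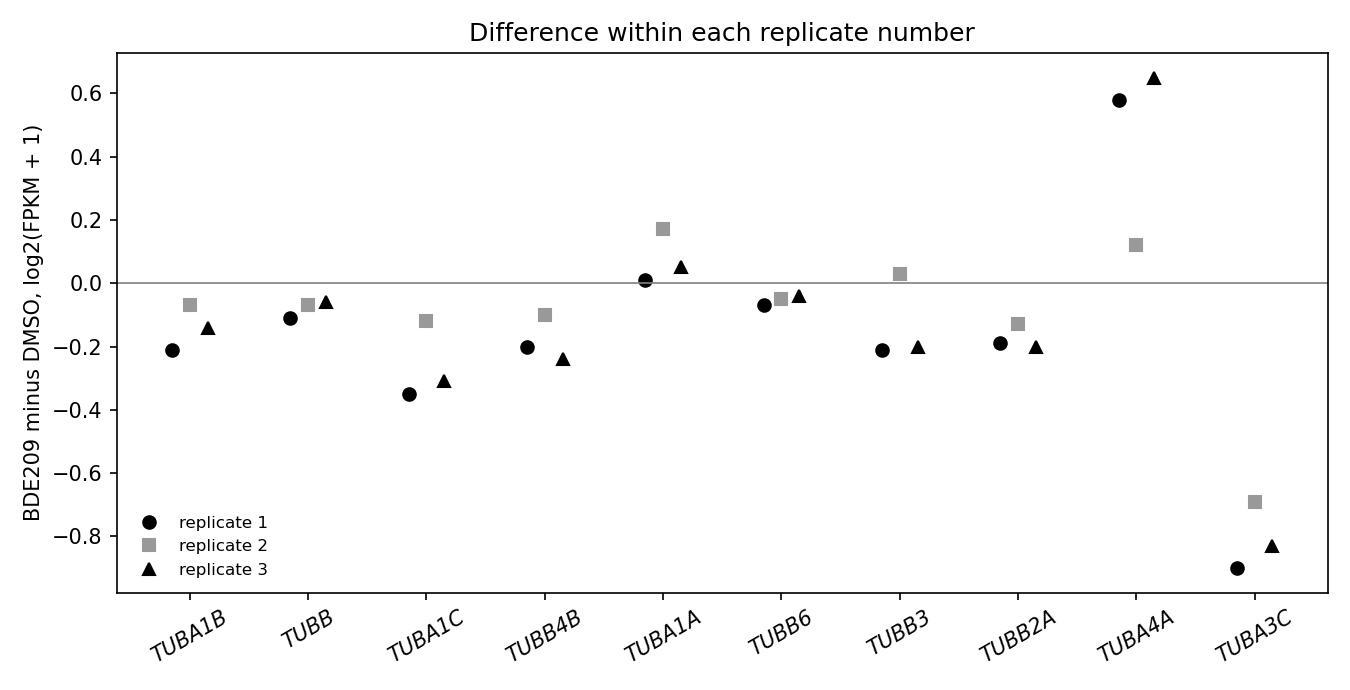
Difference of log2(FPKM + 1), BDE209 minus DMSO, within each replicate number, for each of the 10 isotypes in order of level. The 3 points of a gene are its replicates, with replicate 2 in grey; 7 genes lie under 0 in all 3, TUBA1A and TUBA4A above 0 in all 3, and TUBB3 on both sides.

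TUBA1B (ENSG00000123416, chromosome 12), the main alpha isotype of most cultured cells, was the most abundant tubulin. It read 2420.76, 3023.58 and 2763.05 FPKM in BDE209 replicates 1, 2 and 3 and 2794.02, 3170.56 and 3046.20 in DMSO. BDE209 was lower in each number, by log2 differences of -0.21, -0.07 and -0.14, while the groups overlapped. Its share of all alpha transcripts was 69.6% ± 0.601 in BDE209 and 69.8% ± 0.615 in DMSO (SD, n = 3 each), a difference smaller than either SD.

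TUBA1C (ENSG00000167553, chromosome 12), a close relative also made in many tissues, had the widest relative difference among the 8 abundant isotypes. It read 598.25, 854.86 and 659.91 FPKM in BDE209 replicates 1, 2 and 3 and 761.23, 931.10 and 817.78 in DMSO. Folds were 0.786, 0.918 and 0.807, with replicate 2 the closest to 1, and its high replicate 2 values made the groups overlap. The log2 difference averaged -0.26 (SD 0.12 over 3 replicate numbers), or -0.33 over replicates 1 and 3; it was -0.15 without BDE209 replicate 1 and -0.41 without BDE209 replicate 2. Its share of alpha transcripts was 17%, 19.7% and 16.8% in BDE209 and 18.8%, 20.7% and 18.8% in DMSO, lower in each number.

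TUBA1A (ENSG00000167552, chromosome 12), best known from the developing brain, went the other way. It read 483.64, 449.69 and 508.68 FPKM in BDE209 and 479.61, 399.85 and 489.85 in DMSO, with log2 differences of 0.01, 0.17 and 0.05. The level hardly differed in replicates 1 and 3, the mean difference of 0.08 turned to -0.01 without DMSO replicate 2, and the groups overlapped. The share of TUBA1A in all tubulin was 8.21%, 6.36% and 7.99% in BDE209 and 7.21%, 5.43% and 7.02% in DMSO. That share was higher in BDE209 by 0.999, 0.939 and 0.966 percentage points, nearly the same step in each number although both replicate 2 libraries were the lowest. Leaving out a single library breaks these pairs, and the mean step of 0.968 was then 1.55 if BDE209 replicate 2 was dropped and 0.404 if DMSO replicate 2 was. The ratio of TUBA1A to TUBA1C was 0.808, 0.526 and 0.771 in BDE209 and 0.630, 0.429 and 0.599 in DMSO. The 3 genes together summed to 3502.65, 4328.13 and 3931.64 FPKM in BDE209 and 4034.86, 4501.51 and 4353.83 in DMSO. That sum too depends in part on the split of shared reads, since FPKM are scaled to transcript length. The principal transcripts of TUBA1A, TUBA1B and TUBA1C are 1915, 1627 and 3001 bases long.

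TUBA4A and TUBA3C were near the lower end of detection and had the largest differences on either side. TUBA4A (ENSG00000127824, chromosome 2), the alpha isotype encoded without a final tyrosine and known from platelets and muscle, read 5.02, 2.60 and 4.44 FPKM in BDE209 and 3.03, 2.31 and 2.47 in DMSO. BDE209 was higher by folds of 1.66, 1.13 and 1.80; only the replicate 2 value of BDE209 lay within the DMSO range. Its log2 difference averaged 0.45, or 0.61 over replicates 1 and 3, and its share of alpha transcripts was 0.105% ± 0.042 in BDE209 and 0.061% ± 0.0124 in DMSO (SD, n = 3 each).

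TUBA3C (ENSG00000198033, chromosome 13), an isotype described mainly from testis, read 1.02, 0.52 and 1.20 FPKM in BDE209 and 2.78, 1.46 and 2.92 in DMSO. Every BDE209 value lay under every DMSO value, which held for 2% of all tested genes, and folds were 0.367, 0.356 and 0.411. TUBA3C reached the filter of 1 FPKM in every DMSO library but not in BDE209 replicate 2. It was thus among the tested genes through the group where it is high, and nothing is read from the 2%. The near-identical TUBA3D read 0.04, 0 and 0 in BDE209 and 0.05, 0.14 and 0.28 in DMSO, also lower in BDE209 in each number. At such levels FPKM rest on few fragments, whose number is unknown. The log2 difference of -0.81 depended on the pseudocount of 1 and was -1.30 with a pseudocount of 0.1.

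The promoters of TUBA3C and TUBA4A are shown because these members lay at the 2 ends. They are the 250 bases before the RefSeq start (GRCh38.p14), with each CCAAT or TATAA, on either strand, in capitals.
TUBA3C, chr13:19181825-19182074, minus strand: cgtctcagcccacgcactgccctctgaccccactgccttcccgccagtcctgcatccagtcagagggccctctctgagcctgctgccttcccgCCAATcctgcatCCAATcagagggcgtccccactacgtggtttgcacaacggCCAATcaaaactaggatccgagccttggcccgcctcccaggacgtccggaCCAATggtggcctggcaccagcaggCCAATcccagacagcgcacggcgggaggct
TUBA4A, chr2:219253919-219254168, minus strand: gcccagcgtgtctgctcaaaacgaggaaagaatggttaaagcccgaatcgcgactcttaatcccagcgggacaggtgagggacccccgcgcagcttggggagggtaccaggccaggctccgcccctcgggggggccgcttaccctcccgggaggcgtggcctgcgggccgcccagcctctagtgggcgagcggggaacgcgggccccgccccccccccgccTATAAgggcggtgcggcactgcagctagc
CCAAT stands 5 times in the TUBA3C window and 0 times in that of TUBA4A, and TATAA 0 times and 1 time. The table held 15 windows for the 10 members, of which 9 held CCAAT and 5 held TATAA; of all 35116 windows, 32.0% held CCAAT and 18.9% TATAA. These matches describe letters and not sites in use.

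TUBB (ENSG00000196230, chromosome 6), the main beta isotype of dividing cells, read 1369.42, 1563.75 and 1359.82 FPKM in BDE209 and 1477.35, 1637.47 and 1412.92 in DMSO. BDE209 was lower by log2 differences of -0.11, -0.07 and -0.06, small steps that were alike in all numbers, and the groups overlapped. Its share of beta transcripts was 56.9% ± 0.865 in BDE209 and 55.9% ± 1.74 in DMSO (SD, n = 3 each).

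TUBB4B (ENSG00000188229, chromosome 9), a beta isotype of many tissues that is rich in cilia, read 462.07, 637.81 and 492.38 FPKM in BDE209 and 530.11, 681.52 and 581.60 in DMSO. BDE209 was lower by folds of 0.872, 0.936 and 0.847. Both replicate 2 libraries were the highest of their group, so the groups overlapped. Its share of beta transcripts was lower in each number, at 19.4%, 23.3% and 20.2% in BDE209 and 20.3%, 23.8% and 22.2% in DMSO; the difference in its share of all tubulin was -0.317 percentage points, and 0.0474 without DMSO replicate 2.

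TUBB6 (ENSG00000176014, chromosome 18), a beta isotype whose excess disrupts microtubule networks, read 307.99, 268.00 and 307.77 FPKM in BDE209 and 323.63, 278.07 and 316.82 in DMSO. Its mean log2 difference of -0.06 was the smallest in size of the 10 and turned to 0.01 without BDE209 replicate 2. The share of beta transcripts was 11.8% ± 1.73 in BDE209 and 11.4% ± 1.48 in DMSO (SD, n = 3 each), with replicate 2 low in both groups.

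TUBB3 (ENSG00000258947, chromosome 16) read 148.95, 173.66 and 168.10 FPKM in BDE209 and 172.68, 170.62 and 193.28 in DMSO. It was the one isotype whose sign differed between numbers, at log2 differences of -0.21, 0.03 and -0.20. Its 2.54% ± 0.0911 of all tubulin in BDE209 and 2.56% ± 0.229 in DMSO (SD, n = 3 each) differed by less than either SD. Of the 10 neuronal markers measured, the defining RBFOX3, DCX, STMN2 and ELAVL3 read 0.05 FPKM or less in every library. The list summed to 15.58 to 18.17 FPKM in BDE209 and 12.52 to 16.39 in DMSO. Its 4 tested genes had a median log2 difference of -0.17, or -0.32, 0.25 and -0.43 in replicates 1, 2 and 3. SNAP25, a gene of vesicle release, was higher in BDE209, at 9.74 to 12.45 against 6.14 to 8.90 in DMSO (0.53). Such a gap upwards held for 3.22% of all tested genes, and limma with the block gave SNAP25 an adjusted p = 0.144. SYP, too low to be tested, separated the other way, at 0.03 to 0.13 in BDE209 and 0.16 to 0.21 in DMSO. The neurofilament genes NEFL and NEFM and the dendritic MAP2 differed by -0.14, -0.20 and -0.34, lower in replicates 1 and 3 and higher in replicate 2. The part of these genes in the TUBB3 values was not tested.

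TUBB2A (ENSG00000137267, chromosome 6), a beta isotype prominent in brain, read 77.33, 76.16 and 84.34 FPKM in BDE209 and 88.10, 83.55 and 96.91 in DMSO. BDE209 was lower by folds of 0.878, 0.912 and 0.870, and only the highest BDE209 value reached into the DMSO range. TUBB2B, the one unlisted alpha or beta gene above 2 FPKM, read 13.27, 13.32 and 19 in BDE209 and 14.27, 11.30 and 16.87 in DMSO. The principal transcripts of TUBB2A and TUBB2B are 1595 and 2020 bases long, so their summed FPKM also depend in part on the split of shared reads. The sum of both was 90.60, 89.48 and 103.34 in BDE209 and 102.37, 94.85 and 113.78 in DMSO. Its folds of 0.885, 0.943 and 0.908 lay on the same side as those of TUBB2A. Leaving out a single library breaks the pairs by number. The shares of all tubulin of TUBB2A, TUBB3, TUBB4B, TUBB6 and TUBA1B then took the other sign in some settings. Within numbers 1, 2 and 3, TUBB2A differed by -0.012, -0.0558 and -0.0646 percentage points and TUBB4B by -0.127, -0.221 and -0.604. TUBB6 differed by 0.362, 0.0198 and 0.292, and TUBA1B by -0.918, -0.229 and -0.274. The sign varied within numbers for TUBB3 (-0.068, 0.143 and -0.131) and TUBB (1.03, -0.0873 and 1.1).

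**Figure D3:**
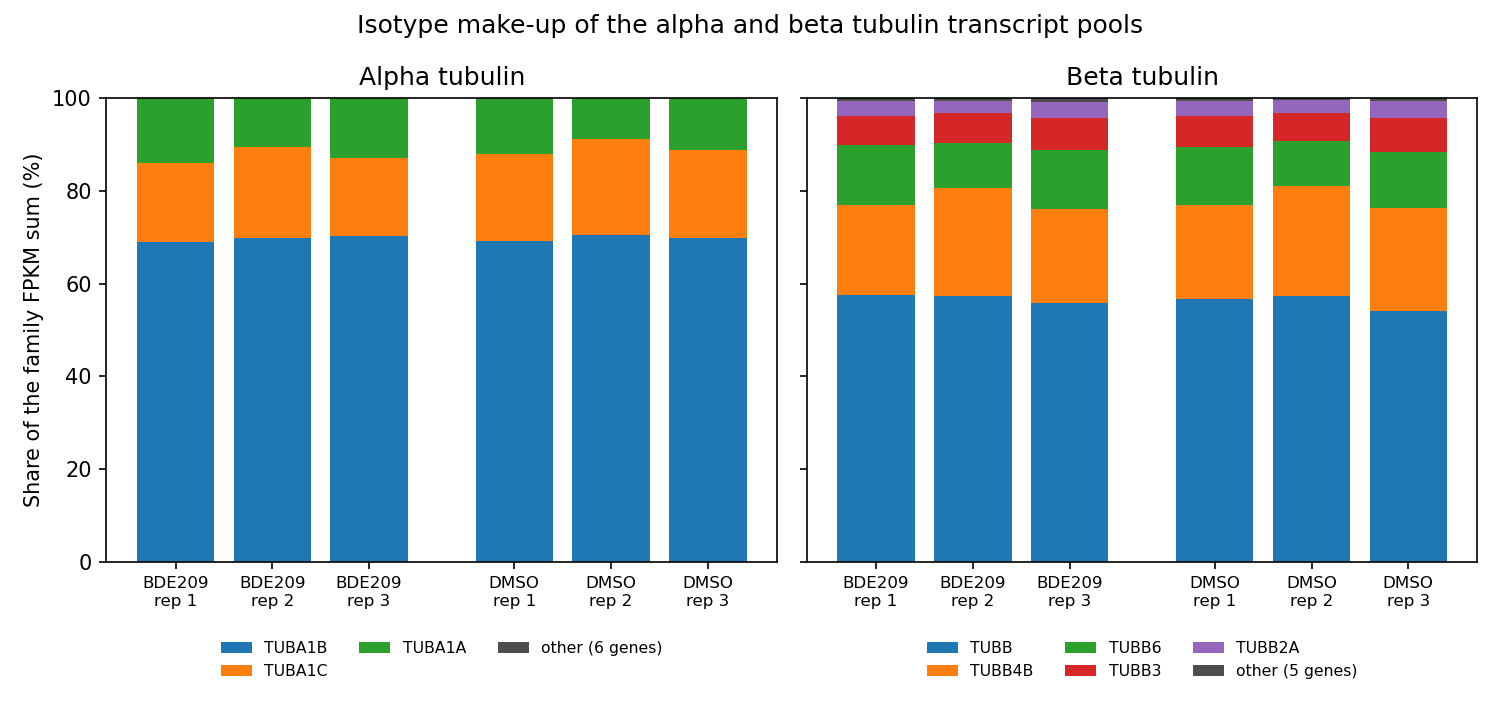
Stacked bars of each isotype's share (%) of summed alpha FPKM, left, and beta FPKM, right, in 6 libraries, BDE209 before DMSO. TUBA1B holds 69.0% to 70.4% of alpha and TUBB 54.0% to 57.6% of beta in every library; TUBA1A has a larger and TUBA1C a smaller part in BDE209 than in the DMSO library of the same number.

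The replicate 2 libraries shifted the isotypes unequally. In both groups TUBA1B, TUBA1C, TUBB and TUBB4B were higher in replicate 2 than in the mean of replicates 1 and 3, with TUBB4B at 1.34 times in BDE209 and 1.23 times in DMSO. TUBA1A, TUBA3C, TUBA4A, TUBB2A and TUBB6 were lower there in both groups, down to 0.468 times in BDE209 and 0.512 times in DMSO for TUBA3C. The BDE209 difference was smaller in size in replicate 2 than in both other numbers for 7 of the 10. Whether the response differed in replicate 2 was not tested.

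Genes with the profile most like each abundant isotype were taken as the 5 with the smallest Euclidean distance over the 6 libraries, among 6165 genes with a mean of at least 10 FPKM, after centring log2(FPKM + 1). All profiles share the same 6 libraries, in which replicate 2 stood apart. Nearest to TUBB were MCM7, YKT6, POMGNT1, ABHD12 and PDIA6, at 0.0408 to 0.0594, and nearest to TUBB6 were NUP153, ZDHHC3, RPN1, TPD52L2 and TRIP10, at 0.0460 to 0.0619. TUBA1A was nearest to CBFB, POGK, WWP1, NEMF and the epsilon tubulin gene TUBE1, at 0.0563 to 0.0707. TUBA1B was nearest to LAMTOR1, UBAC1, MRPL38, ACY1 and ARMC6, at 0.0824 to 0.0929, and TUBA1C to PLEKHJ1, SFRP1, BOP1, ENTR1 and DCUN1D5, at 0.0814 to 0.110. TUBB4B had ENTR1, ASL, TRMT1 and NDUFS8 among its 5, at 0.0596 to 0.0857. TUBB2A had POLD1, ENTPD6, DGAT1, GEMIN4 and FANCA, at 0.0678 to 0.0836, and TUBB3 had INTS11, ACAP3, ZNF672, SLC25A39 and TONSL, at 0.0652 to 0.0888. Among the isotypes themselves the closest were TUBA1C and TUBB4B, 0.12 apart.

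Genes that fold, sense, modify or bind tubulin were counted in 10 lists of 118 genes, of which 90 were tested. Limma called 0 of them higher and 0 lower over all 11223 genes (0%), and 0 with the block. In 12 of the 90 BDE209 was higher in all 3 numbers and in 20 lower, against 21.9% and 17.3% of all tested genes. The groups did not overlap in 3 that were higher and 3 that were lower, against 3.22% and 2% of all tested genes. In the plot by list, medians ran between -0.11 and 0.09, beside 0.01 over all tested genes.

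Folding begins with prefoldin and the chaperonin TRiC, which close nascent tubulin into shape. This list had the lowest median of the 10, with 5 of 14 lower and 0 higher in all 3 numbers, and medians of -0.10, 0.04 and -0.20 in replicates 1, 2 and 3. CCT7, a TRiC subunit, read 230.7 ± 61.6 FPKM in BDE209 and 256.8 ± 72.0 in DMSO (SD, n = 3 each), PFDN2 of prefoldin read 209.8 ± 113.7 in BDE209 and 226.2 ± 103.0 in DMSO, and CCT6A and PFDN5 differed by -0.07 and 0.04 log2 units. Cofactors then join alpha to beta. Of 7 such genes 3 were lower and 1 was higher in all 3 numbers; TBCB, ARL2, TBCD and TBCA differed by -0.15, -0.13, -0.11 and -0.05.

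TTC5, the sensor of excess tubulin, read 3.78, 3.77 and 3.70 FPKM in BDE209 and 3.44, 3.36 and 3.47 in DMSO. All BDE209 values lay above all DMSO values, by a mean log2 difference of 0.10 (limma adjusted p = 1.00; 0.496 with the block). CNOT11, which links the sensor to the enzymes that shorten mRNA tails, read 17.82, 17.29 and 17.01 in BDE209 and 17.88, 17.89 and 20.10 in DMSO, where the groups did not overlap either but in the other direction (-0.09; adjusted p = 1.00; 0.509 with the block). NACA and BTF3, of the complex that binds nascent chains, differed by -0.07 and -0.01.

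Of the other tubulins, gamma tubulin starts microtubules, and TUBG1 read 70.20, 89.58 and 67.09 FPKM in BDE209 and 74.09, 93.43 and 75.10 in DMSO, lower in each number by a mean of -0.10. TUBG2 and TUBE1 differed by 0.01 and 0.08. In the gamma tubulin ring complex 1 of 10 was higher and 0 were lower in all 3 numbers: TUBGCP5, at 0.10. MZT2B, MZT2A and TUBGCP2 differed by -0.04, 0.06 and -0.05.

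Enzymes that modify tubulin were mixed. VASH1, which cuts off the last tyrosine of alpha tubulin, read 3.64, 1.67 and 3.18 FPKM in BDE209 and 2.10, 2.02 and 2.07 in DMSO, higher in replicates 1 and 3 and lower in replicate 2. It was the 1 gene of the 10 lists called higher by limma on replicates 1 and 3 alone (log2 difference 0.51, adjusted p = 0.0313), where 4.47% of all tested genes were; over all 6 libraries its adjusted p was 1.00, and 0.403 with the block. TTL, which puts the tyrosine back, SVBP, the partner of VASH1, and MATCAP1, another protease of that residue, differed by 0.05, -0.13 and 0.07. Of 13 tested genes that add or remove glutamate, 4 were higher and 1 was lower in all 3 numbers; the ligase TTLL7 differed by 0.31, the complex members CSTPP1 and TPGS2 by 0.23 and 0.08, and the carboxypeptidase AGBL5 by 0.15. ATAT1, which acetylates alpha tubulin, read 7.00, 6.52 and 6.22 in BDE209 and 6.09, 5.98 and 5.68 in DMSO, with no overlap (0.13; limma adjusted p = 1.00; 0.358 with the block). The deacetylase SIRT2 read 29.42, 31.44 and 30.87 in BDE209 and 32.12, 33.93 and 31.63 in DMSO, also with no overlap (-0.09; adjusted p = 1.00; 0.438 with the block), and HDAC6, another, differed by 0.05.

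Among proteins that bind or cut the lattice, MAP9, of the spindle, read 3.18, 2.65 and 3.57 FPKM in BDE209 and 2.34, 2.16 and 2.38 in DMSO. The groups did not overlap and the log2 difference was 0.32 (limma adjusted p = 1.00; 0.222 with the block). MAP7D3, named after its values were seen, was the other such gene of its list, at 14.83, 13.73 and 14.19 in BDE209 and 15.59, 15.01 and 15.65 in DMSO. MAP2, also named after its values were seen, was the 1 gene called lower on replicates 1 and 3 alone (-0.57, limma adjusted p = 0.0349), where 2.33% of all tested genes were; it read 1.03, 0.58 and 0.99 in BDE209 and 1.78, 0.45 and 2.22 in DMSO. MAP4, the main such protein outside neurons, differed by -0.14, MAP7D1 by 0.00 and MAPRE1, which tracks growing ends, by 0.04. STMN1, which sequesters tubulin dimers, read 448.6 ± 142.1 in BDE209 and 464.7 ± 70.5 in DMSO (SD, n = 3 each), and the severing genes KATNA1 and KATNBL1 differed by -0.11 and -0.10.

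**Figure D4:**
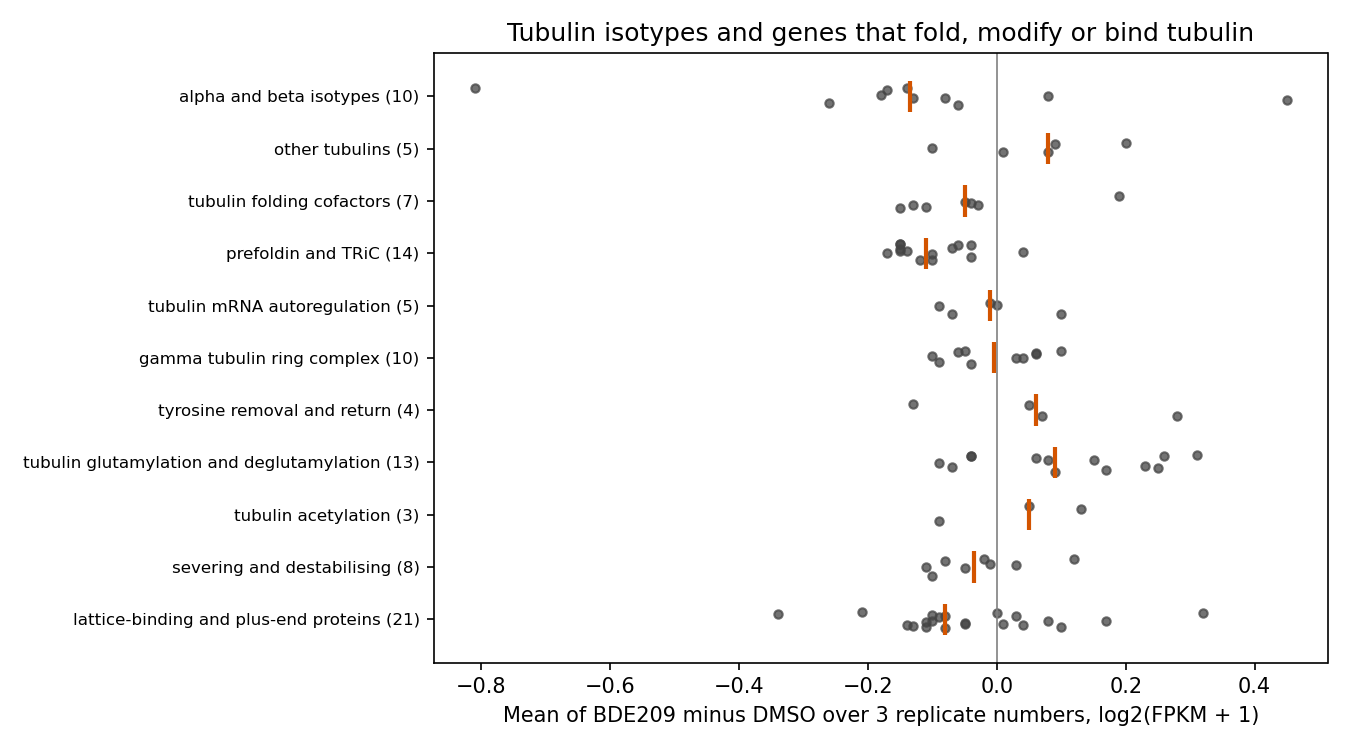
Each dot is 1 tested gene, placed by list at its mean difference in log2(FPKM + 1), BDE209 minus DMSO, over the 3 replicate numbers, with the number of genes in brackets and the list median as a bar. The isotypes spread from TUBA3C at -0.81 to TUBA4A at 0.45 around a median of -0.13, and the other lists have medians between -0.11 and 0.09.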

How the data were processed

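The authors deposited 1 FPKM value per gene and library, to 2 decimals, per the file headers. Bowtie 0.12.2, Bowtie2 and RSEM are named, with builds mm8 and mm10, per the submitters' processing notes; both builds are mouse, while the identifiers are human. The sources used here give no human build, no strand setting and no rule for shared reads. Of 16614 rows, 40 rows of 20 repeated identifiers were left out; 16535 of 16574 genes matched a symbol. Tested were the 11223 genes that reached 1 FPKM in 3 or more libraries. Limma 3.58.1 (R 4.3.3, trend and robust) was run on log2(FPKM + 1), with Benjamini-Hochberg adjustment over all these genes. Differences are BDE209 minus DMSO on that scale, which understates low genes. Depth in fragments is unknown, so no counting intervals are given.

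The members and lists were chosen with earlier results of these data known. Within each list, up to 4 genes are named: any called, otherwise those with the highest mean FPKM, and any with the same sign in all 3 numbers and a mean difference of at least 0.3; all 10 isotypes are named. Some genes and sequences that this rule takes in are not reported here. The replicate numbers were taken to pair the libraries: deviations from group means correlated at 0.738, 0.875 and 0.824 for numbers 1, 2 and 3, each above 0.1. Replicates 1 and 3 of different groups also correlated, at 0.644 and 0.646, and either with replicate 2 at -0.755 to -0.822. With replicate 2 apart in both groups, replicates 1 and 3 correlate across groups whichever way they are paired. The correlations therefore do not settle how replicates 1 and 3 pair, and the labels do not say what a number shares. Coding sequences are from GENCODE v29 (aligned with Biopython 1.88) and promoters from RefSeq. Alternatives were the block, replicates 1 and 3, other scalings, pseudocount, filters and leaving out each library.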

Additional observations from a re-analysis of the deposited data

How the results depend on the processing

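The count of genes called was 0 with the replicate block, without the trend, with both other scalings, with a pseudocount of 0.1, without a filter and at a minimum FPKM of 5, where 68 (equal sums) to 1847 (block) genes had an unadjusted p under 0.05, and 764 on replicates 1 and 3 only. Leaving out single libraries gave counts of 0 to 1, the 1 being C1QTNF1 without BDE209 replicate 2, a gene named after its value was seen (log2 difference 1.97, limma adjusted p = 0.0459). The log2 ratio of summed tubulin was -0.122 with the block, -0.153 on replicates 1 and 3 only, -0.111 with libraries scaled to one sum, -0.114 after quantile normalization, and -0.191 to -0.059 without single libraries. Of 138 recomputed isotype differences, 1 moved by more than the SD between libraries of a group, that of TUBA3C with a pseudocount of 0.1. Leaving out a single library cannot shift a group mean by that much, so those settings could not count as moved. By more than the SD of the 3 within-number differences, 30 moved. A single library moved 8 of the 10 by over 1.5 times, all but TUBA3C and TUBA4A: TUBA1B had -0.214 to -0.053, TUBB -0.142 to -0.017, TUBB4B -0.317 to -0.079, TUBB3 -0.173 to -0.063 and TUBB2A -0.22 to -0.114. TUBA1A and TUBB6 took the other sign in 1 setting each. Of 80 recomputed shares 0 moved past the SD within groups, which leaving out a single library could not bring about. Past that of the within-number differences, 23 moved. The shares of TUBA1B and TUBB4B took the other sign in 1 setting each, and those of TUBB2A, TUBB3 and TUBB6 in 2. TUBA3C and TUBA4A have no value at a minimum FPKM of 5. Fragment depth, which limits both, is unknown.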
